A study of Mus musculus with 8 samples.

Results

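The 10 genes described here are 6 chemokine ligands (Cxcl9, Cxcl10, Cxcl12, Cxcl1, Ccl2 and Cx3cl1) and the 4 atypical chemokine receptors (Ackr1, Ackr2, Ackr3 and Ackr4). They were found by symbol in the gene list of the second run (run B) and matched to the first run (run A) by gene identifier. All 10 were found, among 30406 identifiers that both lists hold. The cells came from male mice that all carried the same alleles, ROSA26-eYFP+/+ and Cdh5-CreERT2+, so that a yellow fluorescent reporter (YFP) marks the lineage of cells in which the endothelial Cdh5 promoter drove Cre. Every mouse ate tamoxifen feed for 2 weeks, starting at an age of 6 weeks. The diets began at an age of 8 weeks and lasted 12 to 13 weeks: one was chow with 5.8% fat, the other a high fat diet with 60% fat. The mesentery and the epididymal fat were digested with Actinomycin D present, and YFP+ cells were sorted and sequenced by a droplet 3' method. Each library pooled 6 mice, and the experiment was done in 2 runs, A and B, which gave 1 library of each of the 4 groups (chow mesentery, high fat mesentery, chow adipose and high fat adipose) per run. The unit of a p-value is therefore a library that pools 6 mice. Without the run in the fit, a p-value measures the spread between the libraries of a group. With the run in the fit, it measures the spread left once the run difference is taken out.

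Chemokines are small secreted proteins that guide leukocytes by signalling through conventional G protein coupled receptors. CXCL9 and CXCL10 are interferon-inducible ligands of CXCR3 on activated T cells. CXCL1 draws neutrophils, CCL2 draws monocytes, and CXCL12 is a ligand of CXCR4 that retains and positions many cell types. CX3CL1 is made as a membrane-bound protein on endothelium and captures cells that carry CX3CR1. The atypical receptors bind chemokines without classical G protein signalling. ACKR1 on venular endothelium carries inflammatory chemokines across the vessel wall, ACKR2 on lymphatic endothelium scavenges inflammatory CC chemokines, ACKR3 takes up CXCL12 and also binds adrenomedullin, and ACKR4 takes up CCL19, CCL21 and CCL25.

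The 8 libraries held 3461360 to 6714473 unique molecular identifiers (UMIs, counts of distinct RNA molecules) in run A and 18829960 to 36779289 in run B. After filters, 23177 cells were clustered, and 18059 of them, 69.7% to 83.2% of each library, were endothelial. Pairs of libraries shared 0 to 9 cell barcodes. The 10 endothelial markers summed to 6787.6 to 9765.8 CPM (UMIs scaled to the total) in the endothelial cells. Clusters were named arterial-like, capillary-like, venous-like or lymphatic-like from marker lists that hold no chemokine or receptor gene, and the 10 genes were left out of the clustering. The runs were aligned to each other for the clustering, while levels and tests used the raw counts. The limits for naming were set after the clusters were seen, so differences from the study's own classes may come from the rebuilt names. The libraries of the runs stood apart. Run A held few capillary-like cells, 33 to 160 per library against 939 to 2271 in run B, and its lymphatic-like share of the endothelium was 24.85% to 55.99% against 3.95% to 8.03%. In all endothelial cells a list of 14 immediate early and dissociation genes summed to 11450.8 to 14510.5 CPM in run A and to 1031.1 to 1203.1 in run B. A level is a gene's UMIs divided by all UMIs of the same class in the same library, on the CPM scale. Levels are compared within a gene, between cells, and no difference between classes was tested.

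The 4 atypical receptors were each highest in venous-like or lymphatic-like cells. Ackr1 (chr1:173331886-173333750, mm10, minus strand, protein coding, as are the other 9 genes) was a venous-like gene, at 182.9 ± 83.3 CPM (SD, n = 8 libraries) against means of 4.9 in capillary-like, 1.5 in lymphatic-like and 0.6 in arterial-like cells. The lowest venous-like library, 80.5, lay above the highest library of any other of these classes, 18.6. Among the named classes Ackr2 (chr9:121898355-121911074, plus strand) was a lymphatic-like gene, at 138.9 ± 21.5. Its 8 lymphatic-like libraries, 107.2 to 167.4, did not overlap the other named classes, whose means were 2.7 (venous-like), 1.8 (arterial-like) and 0.9 (capillary-like). Unnamed endothelial clusters held 15.3% of its 1316 UMIs. Of these, cluster 1 was at 177.2 in chow mesentery and 136.1 in chow adipose of run A (4 and 26 UMIs). In high fat mesentery and high fat adipose of run A it was at 66.1 and 102.2 (1 and 9 UMIs), and in run B at or under 2.0. Other unnamed clusters held Ackr2 UMIs as well. In chow mesentery of run B all endothelial cells held 282, of which lymphatic-like cells held 151 and venous-like cells 30. Arterial-like cells, capillary-like cells and cluster 1 held 0 there. A UMI of Ackr2 was found in 18.9% to 39.5% of lymphatic-like cells per library, and in 10.8% to 17.6% once each cell was thinned to 1000 UMIs. In capillary-like cells, which gave the background, 0% to 1.2% of cells held one. No diet or tissue difference in Ackr2 passed the test in edgeR.

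Ackr3 (chr1:90203980-90216751, plus strand) was shared by lymphatic-like cells, at 204.6 ± 156.1, and venous-like cells, at 201.0 ± 77.7 (SD, n = 8 libraries). These leading classes did not differ beyond their spread, and each was the highest in 4 of the 8 libraries. Their order turned under 7 of 14 alternatives, among them leaving out chow mesentery of run A (venous-like 182.9, lymphatic-like 156.2) or high fat mesentery of run A (206.1 and 205.2). Arterial-like cells followed at 107.4 ± 27.2 and capillary-like cells at 54.5 ± 26.2. Ackr4 (chr9:104084157-104126933, minus strand) was, among these 4 classes, highest in lymphatic-like cells, with a mean over all 8 libraries of 91.4 ± 173.3 that spans 0 to 501.1. The other 3 classes stayed at or under 5.9 in every library. Of its 1543 UMIs in the whole series 52.7% came from lymphatic-like cells, 38% from unnamed endothelial clusters and 5.4% from fibroblast-like cells. In chow mesentery of run B the unnamed cluster 14 held 555 of them and lymphatic-like cells held 614. The plot of levels by class shows the separation of Ackr1 and Ackr2 by vessel type and the wide spread of Ackr4.

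**Figure D1:**
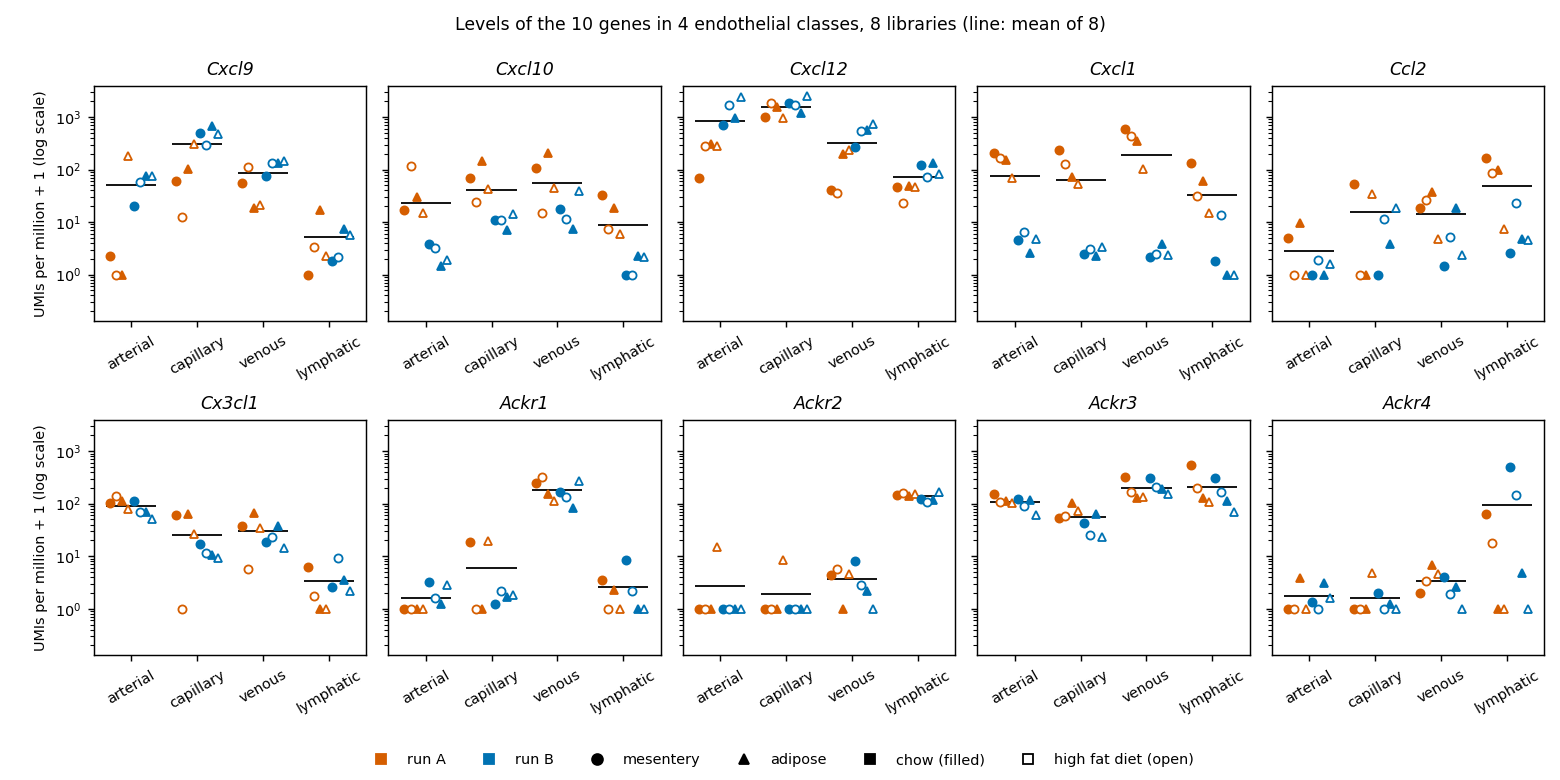
Level of each gene (CPM plus 1, log axis) in arterial-like, capillary-like, venous-like and lymphatic-like cells, 1 point per library (colour: run, shape: tissue, fill: diet) and a line at the mean of 8. Ackr1 is highest in venous-like cells (80.5 to 319.6) and Ackr2 in lymphatic-like cells (107.2 to 167.4) with no overlap with the other classes, while Cxcl1 splits by run in every class.

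Among the ligands, Cxcl12 and Cxcl9 were highest in capillary-like cells and Cx3cl1 in arterial-like cells. Cxcl12 (chr6:117168535-117181367, plus strand) reached 1577.6 ± 510.6 CPM in capillary-like cells (SD, n = 8 libraries, 944.8 to 2462.3), and this was the highest class in 8 of 8 libraries. Arterial-like cells followed at 836.2 ± 817.9, venous-like at 326.4 ± 257.4 and lymphatic-like at 71.0 ± 39.2. Over the whole series, 53.7% of its UMIs came from capillary-like cells and 89.7% from endothelial cells. Cxcl9 (chr5:92321347-92328079, minus strand) was at 304.6 ± 238.0 in capillary-like cells (11.3 to 687.6), the highest class in 7 of 8 libraries. Its means were 85.9 ± 51.7 in venous-like, 50.4 ± 61.0 in arterial-like and 4.1 ± 5.4 in lymphatic-like cells, and 72% of its UMIs came from capillary-like cells. Run B supplied 22236 of the 22680 endothelial UMIs of Cxcl9, and in run A capillary-like cells held 101 of 444 and venous-like cells 230. Cx3cl1 (chr8:94772009-94782427, plus strand) was at 90.6 ± 29.4 in arterial-like cells (50.1 to 137.3), the highest class in 8 of 8 libraries. Venous-like cells (29.0 ± 19.1) lay above capillary-like cells (24.2 ± 24.2) in 7 of 8 libraries, with overlapping ranges, and lymphatic-like cells were at 2.4 ± 2.9.

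In Cxcl10, Cxcl1 and Ccl2 the ranges of the classes overlapped, as in the other ligands, and the spread over libraries was about as large as the means. The leading class was the highest in 7 of 8 libraries for Cxcl10 (venous-like). It was so in 5 of 8 for Cxcl1 (venous-like) and for Ccl2 (lymphatic-like). Cxcl10 (chr5:92346638-92348889, minus strand) lies 18.6 kb from Cxcl9. It was at 55.2 ± 69.3 in venous-like (SD, n = 8 libraries), 39.7 ± 47.7 in capillary-like, 22.5 ± 38.6 in arterial-like and 7.9 ± 11.4 in lymphatic-like cells. Unlike Cxcl9, it was not mainly a transcript of the named endothelial classes: 36.7% of its 4194 UMIs came from mural-like cells (pericytes and smooth muscle by their markers), 28.8% from unnamed endothelial clusters and 15.4% from venous-like cells. The mural-like share rests on chow adipose of run A, which held 1412 of those UMIs. Without that library it was 5.0% of 2597 UMIs, against 46.2% in unnamed endothelial clusters and 20.7% in venous-like cells. Cxcl1 (chr5:90891241-90893115, plus strand) was at 185.0 ± 236.1 in venous-like, 76.0 ± 86.5 in arterial-like, 61.4 ± 83.2 in capillary-like and 31.1 ± 45.4 in lymphatic-like cells. Ccl2 (chr11:82035571-82037453, plus strand) was at 47.9 ± 60.7 in lymphatic-like (1.6 to 164.2), 14.6 ± 19.2 in capillary-like, 13.5 ± 13.3 in venous-like and 1.8 ± 3.1 in arterial-like cells. Single cells carried much of some of these levels. In venous-like cells of run B, 1 cell held 91.5% of the 71 Cxcl10 UMIs of chow mesentery, and 1 cell held 85.9% of those of high fat adipose. In arterial-like cells of high fat adipose in run A, 1 cell held 94.1% of the 51 Cxcl9 UMIs.

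The promoters of the 3 inducible CXC ligands Cxcl9, Cxcl10 and Cxcl1 are shown because these genes lie on 1 chromosome. In addition, Cxcl9 differed from Cxcl10 and Cxcl1 in its leading class and in the run where it was higher over all endothelial cells. The promoters are the bases just before the RefSeq start (assembly GRCm38.p6), 5' to 3' on the gene's strand, and capitals mark matches to the motifs named next. These are the interferon response element (GAAA, 2 bases of any kind, GAAA), the NF-kB consensus by its name, and TATAA, searched on both strands. Cxcl9 is chr5:92328080-92328329 on the minus strand, Cxcl10 is chr5:92348890-92349139 on the minus strand, and Cxcl1 is chr5:90890995-90891240 on the plus strand.
Cxcl9: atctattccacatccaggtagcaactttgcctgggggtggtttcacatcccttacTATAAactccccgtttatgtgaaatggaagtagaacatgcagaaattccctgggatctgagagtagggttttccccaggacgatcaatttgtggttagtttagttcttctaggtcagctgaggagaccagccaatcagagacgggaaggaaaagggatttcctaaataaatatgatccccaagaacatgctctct
Cxcl10: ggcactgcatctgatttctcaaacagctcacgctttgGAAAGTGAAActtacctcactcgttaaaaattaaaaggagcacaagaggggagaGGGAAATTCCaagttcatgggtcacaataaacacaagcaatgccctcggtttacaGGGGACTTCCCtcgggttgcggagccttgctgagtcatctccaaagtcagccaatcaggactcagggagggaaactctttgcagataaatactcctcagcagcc
Cxcl1: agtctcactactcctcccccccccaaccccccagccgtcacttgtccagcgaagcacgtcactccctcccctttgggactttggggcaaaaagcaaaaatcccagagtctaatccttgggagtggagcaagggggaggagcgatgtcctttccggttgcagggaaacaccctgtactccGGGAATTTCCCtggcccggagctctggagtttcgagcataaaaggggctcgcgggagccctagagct
Positions are counted back from the RefSeq start, and the Cxcl1 stretch ends 4 bases before it. Cxcl10 holds the interferon element at bases 213 to 204 and NF-kB matches at 159 to 150, 104 to 95 and 103 to 94. Cxcl1 holds overlapping NF-kB matches on the plus strand at 71 to 62 and on the minus strand at 70 to 61. Cxcl9 holds TATAA at 195 to 191 and none of the other letters in this window. Of the 9 genes with a promoter in the RefSeq table, 1 holds the interferon element, 3 hold the NF-kB consensus (Cxcl10, Cxcl1 and Ackr2), 4 hold TATAA (Cxcl9, Cx3cl1, Ackr3 and Ackr4) and 0 hold TTCNNNGAA, the letters of the gamma-activated site. Among 32851 promoters of the table, 2.98% hold the interferon element, 7.25% the NF-kB consensus, 22.78% TATAA and 7.02% TTCNNNGAA. A match is a description of letters, not of a bound site.

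The runs differed in several ligands, most of all in Cxcl1. In all endothelial cells Cxcl1 was at 48.8 to 441.3 CPM in the 4 libraries of run A and at 1.5 to 5.2 in those of run B, 67.58-fold higher in run A by the means. The runs did not overlap in all endothelial cells or in any of the 4 classes. Among all genes tested in a class, 7.55% to 10.7% were higher in run A without overlap. Cxcl9 went the other way, at 17.2 to 72.5 in run A and 172.5 to 486.2 in run B (7.25-fold higher in run B), as did Cxcl12, at 64.0 to 266.4 and 841.6 to 1911.3 (7.05-fold). Within capillary-like cells the runs overlapped for Cxcl12, at 944.8 to 1853.7 in run A and 1182.1 to 2462.3 in run B. In the other 3 classes they did not, and Cxcl12 was higher in run B by 6.11-fold in arterial-like, 4.17-fold in venous-like and 2.52-fold in lymphatic-like cells. Among all genes tested in these classes 22.8%, 25.9% and 17.1% were higher in run B without overlap. Ackr2 was higher in run A, at 29.4 to 92.3 against 3.7 to 16.4 (6.79-fold). Lymphatic-like cells made up more of the endothelium in run A, and within lymphatic-like cells the runs overlapped. The part of the class shares in the Ackr2 run difference was not tested. Cxcl10 was higher in run A in 4 of 4 matched groups (5.42-fold), with overlap. The runs also overlapped in venous-like cells. They did not in arterial-like (14.0 to 114.9 in run A, 0.5 to 2.9 in run B) and capillary-like cells (22.6 to 145.2, 6.0 to 13.4). Nor did they in lymphatic-like cells (5.0 to 32.3, 0.0 to 1.3), where run B held 2 UMIs. The shares of all genes are those given for Cxcl1. Of the 10 genes, 2 (Cxcl1 and Ackr2) were higher in run A and 2 (Cxcl9 and Cxcl12) higher in run B without overlap. Among all genes tested the shares were 14.1% and 28.5%. The immediate early and dissociation list was also higher in run A, and a list of 18 NF-kB response genes summed to 2713.0 to 8386.9 in run A and 772.8 to 1423.9 in run B, while 28 interferon response genes summed to 1599.0 to 3390.4 and 3122.3 to 4076.9. Their part in the run difference was not tested, and runs also differed in depth and in the counting software.

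**Figure D2:**
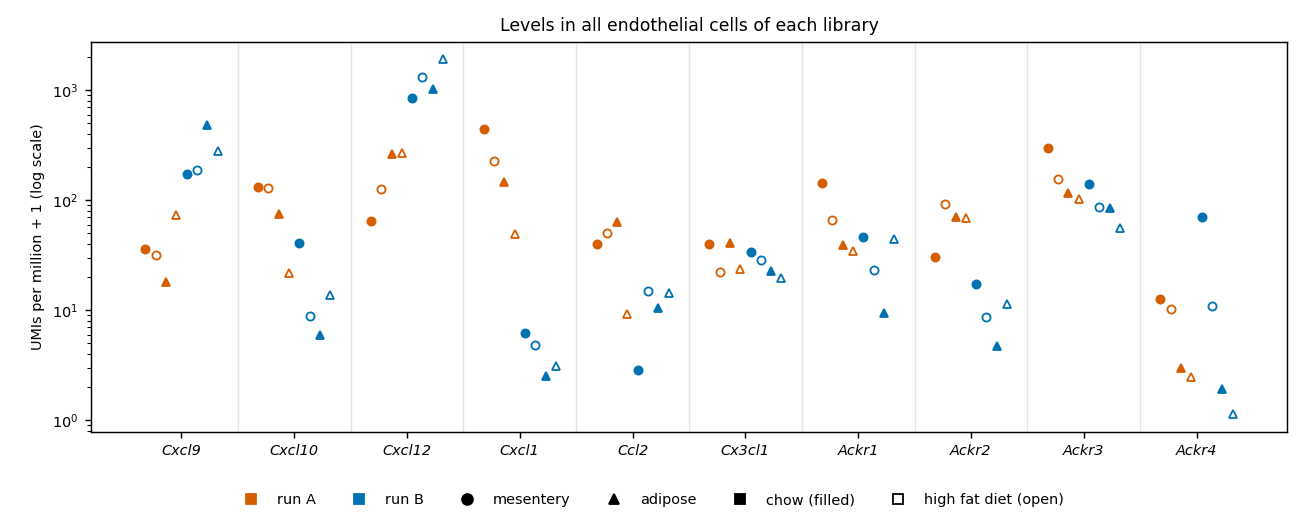
Level of each gene in all endothelial cells (CPM plus 1, log axis), 1 point per library (colour: run, shape: tissue, fill: diet). Cxcl1 lies between 48.8 and 441.3 in run A and between 1.5 and 5.2 in run B, and Cxcl9 and Cxcl12 lie higher in run B.

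Diet and tissue were compared within each class from the UMIs summed per library, over all genes. Because each run supplied 1 library per group, the fit was made without and with the run as a block. Without the block, edgeR called 0 of the 10 genes at an adjusted p under 0.05 in every class and comparison, and 0 of all genes (background 0%). At an unadjusted p under 0.05 it held 0 to 2 of them per comparison. Without the block DESeq2 called 1 of the 10, Ackr4, in all endothelial cells between tissues on chow and averaged over diets, where it called 0.608% and 0.745% of all genes, and limma called 0. The calls below rest on the fit with the block. The 4 comparisons share their groups in pairs, so the values are given side by side and are not independent of each other.

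In lymphatic-like cells, Ackr3 and Ackr4 were lower on the high fat diet in the mesentery and higher in the mesentery than in adipose tissue on either diet. Ackr3 was at 543.2 (run A) and 311.8 (run B) CPM in chow mesentery, 200.7 and 169.0 in high fat mesentery, 127.7 and 110.1 in chow adipose, and 105.1 and 69.3 in high fat adipose. The 2 chow mesentery libraries lay above all 6 others, and the mesentery above the adipose tissue on each diet. On the high fat diet in the mesentery Ackr3 fell by 1.18 ± 0.20 on the log2 scale (SE, edgeR with the run as a block, adjusted p = 0.00216), 2.71-fold lower in run A and 1.84-fold lower in run B. Without the block the change was -1.22 ± 0.39 with an edgeR adjusted p of 1. Of 8731 genes tested in these cells 1.86% were called in this comparison, and of the 7 of the 10 genes that could be tested 2 were called, Ackr3 and Ackr4. All 7 had a negative estimate, with a median of -1.18 against 0.002 over all genes, and 5 had an unadjusted p under 0.05. The call was lost without high fat mesentery of run A (-1.03, edgeR adjusted p = 0.13).

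Between tissues on chow, Ackr3 was higher in the mesentery by 1.82 ± 0.21 on the log2 scale (SE, edgeR with the block, adjusted p = 4.17e-05; 0.809 without it), 4.25-fold in run A and 2.83-fold in run B. On the high fat diet the difference was 1.12 ± 0.22 (edgeR with the block, adjusted p = 0.0343; 1 without it), 1.91-fold and 2.44-fold. Of the 7 genes tested 2 were called between tissues on each diet, Ackr3 and Ackr4, with 1.7% of all genes called on chow and 0.172% on the high fat diet. The difference on the high fat diet is the weaker call: leaving out any 1 of the 4 high fat libraries gave edgeR adjusted p-values of 0.116 to 0.551. Whether the diet change in Ackr3 differed between the tissues did not pass the test (interaction -0.70 ± 0.30, edgeR with the block, adjusted p = 0.787).

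Ackr4 was at 62.1 (run A) and 501.1 (run B) CPM in chow mesentery, from 48 and 614 UMIs. In high fat mesentery it was at 16.5 and 148.0, from 21 and 127 UMIs. In adipose tissue 3 UMIs were found in chow adipose of run B (3.8 CPM) and 0 in the 3 other libraries, whose floors of 3 counts per library lie at 3.46 to 3.76. Every mesenteric library thus lay above every adipose one, while the diets overlapped across runs and separated within each run. On the high fat diet in the mesentery Ackr4 fell by 1.83 ± 0.23 on the log2 scale (SE, edgeR with the block, adjusted p = 1.18e-04), 3.77-fold lower in run A and 3.39-fold lower in run B. Without the block its edgeR adjusted p was 1. Between tissues on chow it was at least 16.5-fold higher in the mesentery in run A, and in run B the ratio was 134 (95% counting interval 45.5 to 649.5, counting error only). On the high fat diet it was at least 4.38-fold higher in run A and at least 42.7-fold higher in run B. Both tissue differences were called by edgeR with the block (adjusted p = 6.5e-09 on chow and 1.47e-06 on the high fat diet; 0.947 and 1 without it), and the second was lost without high fat adipose of run B (edgeR adjusted p = 0.0748).

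The share of lymphatic-like cells with an Ackr4 UMI was 5.9% in run A (exact 95% interval 3.6 to 9.1) and 29.6% in run B (24.5 to 35.1) in chow mesentery, and 0.8% (0.2 to 2.3) and 13.3% (7.9 to 20.4) in high fat mesentery. In adipose tissue the share was 1.7% in chow adipose of run B and 0% in the other libraries. After thinning to 1000 UMIs per cell the mesenteric shares were 3.7% and 21.6% on chow and 0.8% and 8.9% on the high fat diet. Capillary-like cells held 0% to 0.6%. In high fat mesentery of run A 3 cells carried the UMIs and 1 of them held 52.4%. Ackr2 in the same cells was at 147.4 and 123.2 in chow mesentery, 159.1 and 107.2 in high fat mesentery, 141.5 and 115.1 in chow adipose, and 150.2 and 167.4 in high fat adipose. The diets overlapped in the mesentery, both high fat adipose libraries lay above both chow adipose ones, and its log2 differences, -0.25 to 0.31 with the block, did not pass the test in edgeR.

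**Figure D3:**
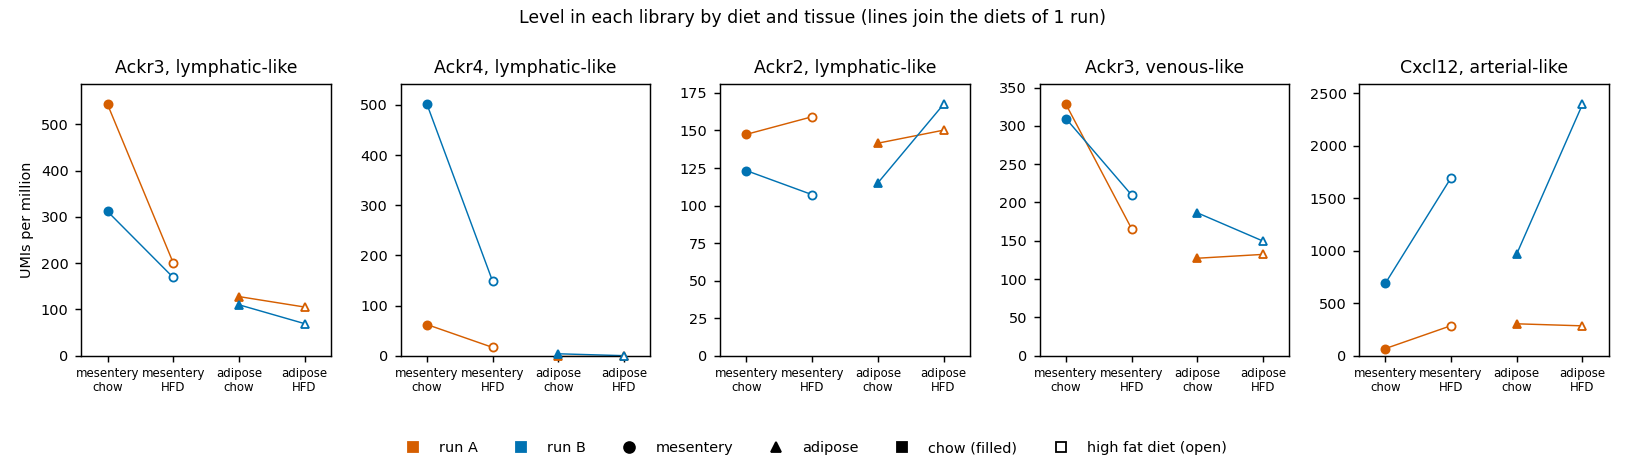
Level in each library (CPM) of Ackr3, Ackr4 and Ackr2 in lymphatic-like cells, Ackr3 in venous-like cells and Cxcl12 in arterial-like cells, by tissue and diet, with lines joining the diets of 1 run. Both runs slope down in mesenteric lymphatic-like cells for Ackr3 (543.2 to 200.7 and 311.8 to 169.0) and Ackr4 (62.1 to 16.5 and 501.1 to 148.0), while Ackr2 stays between 107.2 and 167.4.

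The lymphatic-like class joins cluster 5, led by Lyve1, Ccl21a and Reln, cluster 12, led by Spp1, Fibin and Nts, and the small cluster 29 (48 cells in all), and the receptors differed between clusters 5 and 12. Ackr4 had 0 UMIs in cluster 5 in all 8 libraries (80 to 398 cells each), while cluster 29 held 4 in 1 library, and it was found in cluster 12 at 240.4 and 1101.9 in chow mesentery, 64.2 and 370.7 in high fat mesentery, 0 and 11.2 in chow adipose and 0 in both high fat adipose libraries. Within cluster 12, where 0.628% of all genes were called between diets in the mesentery, Ackr4 fell by 1.78 ± 0.28 on the log2 scale (SE, edgeR with the block, adjusted p = 0.00407). Ackr2 went the other way, at 156.6 to 251.2 in cluster 5 and 5.0 to 69.4 in cluster 12. In cluster 12 it was at 5.0 to 21.4 in the mesentery and 33.5 to 69.4 in adipose tissue, which did not overlap, and the difference on chow missed the threshold (-2.85 ± 0.72, edgeR with the block, adjusted p = 0.0568, with 1.27% of all genes called).

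Ackr3 was also compared within each cluster. In cluster 5 it was at 644.8 and 363.7 CPM in chow mesentery, 211.3 and 116.7 in high fat mesentery, 134.2 and 143.4 in chow adipose, and 101.7 and 74.5 in high fat adipose. Chow mesentery lay above the 6 other libraries, and Ackr3 fell by 1.59 ± 0.22 on the log2 scale on the high fat diet in the mesentery (SE, edgeR with the block, adjusted p = 5.97e-05, 2.78% of all genes called). In cluster 12 the values were 255.4 and 251.1 in chow mesentery and 171.2 and 248.1 in high fat mesentery, and the change was -0.36 ± 0.32 (edgeR with the block, adjusted p = 0.872). The diet change was not tested between the clusters. The tissue difference on chow was called in both, at 1.80 ± 0.23 in cluster 5 (edgeR with the block, adjusted p = 2.62e-05) and 2.00 ± 0.39 in cluster 12 (adjusted p = 0.00911). Cluster 5 made up 49.19% to 81.31% of the lymphatic-like cells of a library and cluster 12 made up 18.38% to 49.19%. These fits within single clusters were chosen after seeing the data.

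Other values moved with these differences. Of the 10 macrophage markers 1 to 6 per library were at 0 in lymphatic-like cells, Csf1r among them in 7 of 8, and their sum was 94.7 to 130.6 CPM in chow mesentery, 133.3 to 156.2 in high fat mesentery and 205.4 to 256.4 in adipose tissue. Of the 9 fibroblast markers 1 to 7 were at 0, and their sum was 90.5 to 90.6, 135.6 to 184.2 and 84.3 to 184.0. The 10 lymphatic markers summed to 15581.8 to 16189.6 in chow mesentery, 11639.5 to 13472.1 in high fat mesentery and 11219.7 to 14445.3 in adipose tissue. Their part in the fall of Ackr3 and Ackr4 was not tested. With a minimum of 1000 UMIs per cell and new clusters, the Ackr3 change was -0.46 (edgeR with the block, adjusted p = 0.433). In those clusters the lymphatic-like class took in 222 cells of cluster 14, an unnamed mesenteric cluster, in chow mesentery of run B, 61 in that of run A, 12 and 2 in high fat mesentery and 0 in adipose tissue. With the first cell names kept and the same minimum, a setting chosen after seeing the data, it was -1.16 ± 0.20 (edgeR with the block, adjusted p = 0.00224).

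**Figure D4:**
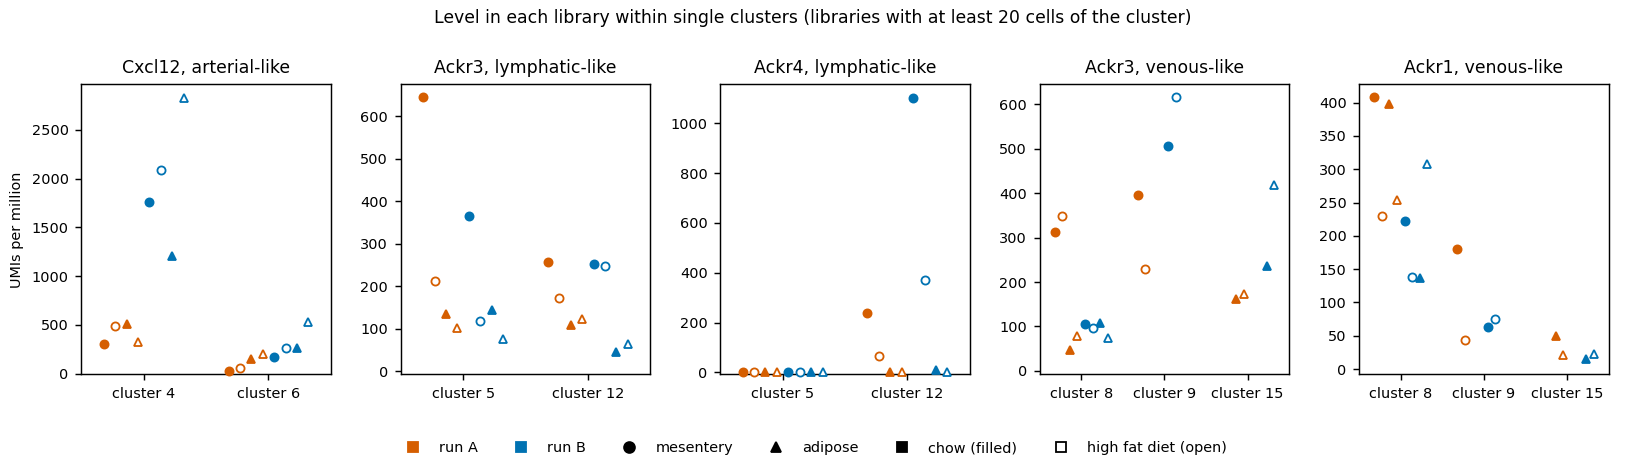
Level in each library (CPM) within single clusters, for libraries with at least 20 cells of the cluster: Cxcl12 in the arterial-like clusters, Ackr3 and Ackr4 in the lymphatic-like clusters, and Ackr3 and Ackr1 in the venous-like clusters. Ackr4 is at 0 in cluster 5 in all 8 libraries and reaches 1101.9 in cluster 12, and Cxcl12 is higher in cluster 4 than in cluster 6 within every library.

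In venous-like cells Ackr3 was higher in the mesentery than in adipose tissue on chow. It was at 328.1 (run A) and 309.4 (run B) CPM in chow mesentery, 165.7 and 209.7 in high fat mesentery, 127.2 and 186.5 in chow adipose, and 132.2 and 149.6 in high fat adipose. The 2 chow mesentery libraries lay above the 6 others. The tissue difference on chow was 1.03 ± 0.22 on the log2 scale (SE, edgeR with the block, adjusted p = 0.0303; 0.869 without it), 2.58-fold in run A and 1.66-fold in run B, and Ackr3 was 1 of 9 genes tested that was called, with 1.6% of all genes called. The call was lost without chow mesentery of run A (0.83, edgeR adjusted p = 0.194), chow adipose of run A (0.89, 0.401) or chow adipose of run B (1.21, 0.246).

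The venous-like class was made of different clusters in the tissues. Cluster 9 held 71.34% and 63.92% of it in chow mesentery and 0% and 3.16% in chow adipose, and cluster 15 held 0.16% and 0.12% against 56.87% and 45.5%. Ackr3 was at 395.9 and 505.2 in cluster 9 of chow mesentery and at 162.2 and 236.7 in cluster 15 of chow adipose. In cluster 8, which both tissues share, the difference on chow was 0.86 ± 0.43 and did not pass the test (edgeR with the block, adjusted p = 1, 0.0583% of all genes called). The part of the clusters in the Ackr3 tissue difference was not tested. Ackr1 in venous-like cells was at 242.0 and 165.1 in chow mesentery, 319.6 and 131.0 in high fat mesentery, 148.7 and 80.5 in chow adipose, and 112.0 and 264.5 in high fat adipose. On chow both mesenteric libraries lay above both adipose ones, the other groups compared overlapped, and no difference passed the test in edgeR. Cxcl1 in venous-like cells was at 579.1 and 1.2 in chow mesentery, 441.0 and 1.4 in high fat mesentery, 352.2 and 2.8 in chow adipose, and 101.0 and 1.4 in high fat adipose. Every library of run A lay above every one of run B. Between tissues on the high fat diet limma with the block called Cxcl1 higher in the mesentery (2.07, with 0.131% of all genes called), and edgeR with the block did not (1.98 ± 0.42, adjusted p = 0.0982). Cxcl10 in the same cells was at 104.7 and 16.5, 14.0 and 10.4, 207.4 and 6.3, and 44.1 and 38.3 in the same order. The high fat mesentery libraries lay below the 2 of chow mesentery and of high fat adipose, chow adipose spanned the rest, and no difference passed the test in edgeR. This order rests partly on single cells. In chow mesentery of run B 1 cell held 65 of the 71 UMIs. In high fat adipose 1 cell held 73 of 85 UMIs in run B and 16 of 24 in run A.

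In arterial-like cells Cxcl12 was higher on the high fat diet in the mesentery. It was at 67.8 (run A) and 690.3 (run B) CPM in chow mesentery and at 285.8 and 1694.9 in high fat mesentery. In chow adipose it was at 303.5 and 970.2 and in high fat adipose at 284.0 and 2393.1. The diets overlapped across the runs and separated within each run, at 4.22-fold in run A and 2.46-fold in run B. Cxcl12 rose by 1.51 ± 0.30 on the log2 scale (SE, edgeR with the block, adjusted p = 0.0113), and by 1.34 ± 1.27 with an adjusted p of 1 without the block. It was 1 of 6 genes tested that was called, with 2.47% of all genes called, and the call was lost without high fat mesentery of run B (1.58, edgeR adjusted p = 0.257) and with called doublets kept (1.45, 0.0519).

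The make-up of the arterial-like class moved with this difference. Cluster 4 held 23.3% and 25.26% of the class in chow mesentery and 51.69% and 71.08% in high fat mesentery, and cluster 6 held the rest. The 12 capillary markers summed to 849.8 and 3557.6 CPM in arterial-like cells of chow mesentery (3 and 0 markers at 0) and to 1440.2 and 9129.6 in those of high fat mesentery (1 and 0 at 0). Cxcl12 was at 307.7 and 1759.8 in cluster 4 of chow mesentery and 489.0 and 2091.9 in that of high fat mesentery. It was at 28.8 and 172.5, and 59.3 and 257.7, in cluster 6. Within cluster 4 alone the diet change in the mesentery was 0.42 ± 0.28 (edgeR with the block, adjusted p = 1, 0.45% of all genes called) and within cluster 6 alone 0.65 ± 0.30 (adjusted p = 0.706, 0.684% called). Each estimate was smaller than the one over the class. The part of the clusters in the change over the class was not tested. Cx3cl1 in arterial-like cells was at 101.7 and 113.0 in chow mesentery, 137.3 and 67.2 in high fat mesentery, 109.8 and 68.4 in chow adipose, and 77.1 and 50.1 in high fat adipose. Across runs its groups overlapped except that both high fat adipose libraries lay below both of chow mesentery. Within each run it was lower in high fat adipose than in chow adipose and than in high fat mesentery. The differences were -0.45 ± 0.28 between diets in adipose tissue and 0.57 ± 0.28 between tissues on the high fat diet (edgeR with the block, adjusted p = 1 for both). In all endothelial cells Cx3cl1 was at 39.0 and 32.9 in chow mesentery, 21.3 and 27.7 in high fat mesentery, 40.3 and 21.6 in chow adipose, and 22.7 and 18.5 in high fat adipose, lower on the high fat diet in 4 of 4 pairs of libraries. No difference passed the test in edgeR in either set of cells.

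In capillary-like cells none of the 8 genes tested passed in any comparison with the block, against backgrounds of 0.858% (diet, mesentery), 1.04% (diet, adipose tissue), 0.254% (tissue, chow) and 0.0283% (tissue, high fat diet). At an unadjusted p under 0.05, edgeR with the block held 1, 2, 0 and 1 of them, and the run A libraries had few of these cells. Cxcl12 in capillary-like cells was at 1017.9 and 1851.3 in chow mesentery, 1853.7 and 1722.0 in high fat mesentery, 1586.6 and 1182.1 in chow adipose, and 944.8 and 2462.3 in high fat adipose, and the groups compared overlapped. Cxcl9 was at 60.9 and 496.7 in chow mesentery, 11.3 (1 UMI) and 298.2 in high fat mesentery, 103.7 and 687.6 in chow adipose, and 308.7 and 469.4 in high fat adipose. In both runs Cxcl9 was lower in high fat than in chow mesentery, and in adipose tissue the runs went opposite ways. The make-up of the class moved with these values: cluster 2, which has Cxcl9 among its leading genes, held 26.67% and 39.9% of it in chow mesentery, 21.21% and 6.5% in high fat mesentery, 10.47% and 73.76% in chow adipose, and 53.75% and 4.54% in high fat adipose. Cluster 7 held 57.78% and 4.04%, 69.7% and 60.49%, 26.74% and 2.82%, and 7.5% and 61.2% in the same order, and cluster 3 held the rest. The part of the clusters in these values was not tested. Ccl2, highest in lymphatic-like cells, was there at 164.2 and 1.6 in chow mesentery, 83.9 and 22.1 in high fat mesentery, 97.7 and 3.8 in chow adipose, and 6.3 and 3.5 in high fat adipose. It was higher in run A in 4 of 4 matched groups, with overlap. In both runs it was higher in the mesentery than in adipose tissue on the high fat diet, by 3.52 ± 0.74 on the log2 scale (edgeR with the block, adjusted p = 0.0655). The counts behind this were 107 against 5 UMIs in run A and 19 against 3 in run B, the last at the floor of 3 counts. In high fat mesentery of run A 10 cells held 78.5% of the UMIs. The call was made by limma with the block (3.66, with 0.16% of all genes called) and by edgeR with a minimum of 1000 UMIs per cell and the cell names kept, chosen after seeing the data (3.50, adjusted p = 0.0472, 0.195% called).

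Summed over all endothelial cells, 1 of the 10 genes was called, Ackr4, between tissues averaged over diets. It was at 11.5 and 69.9 CPM in chow mesentery, 9.2 and 10.0 in high fat mesentery, 2.0 and 0.9 in chow adipose, and 1.5 and 0.1 in high fat adipose, and every mesenteric library lay above every adipose one. The difference was 5.20 ± 0.76 on the log2 scale (SE, edgeR with the block, adjusted p = 0.0477; 0.598 without it), with 0.456% of all genes called, and it was lost without any 1 of the 4 adipose libraries (edgeR adjusted p = 0.0827 to 0.443). It was also lost with a mitochondrial limit of 20% (5.09, edgeR adjusted p = 0.0697), with called doublets kept (5.20, 0.0504) and in limma with the block (5.20, 0.15). Such a sum does not tell more cells of a type from more RNA per cell. In the other comparisons of all endothelial cells edgeR with the block called 0 of the 10, against backgrounds of 0.038% (diet, mesentery), 0.0152% (diet, adipose tissue), 0.562% (tissue, chow), 0% (tissue, high fat diet) and 0.228% (diet averaged), and 1 to 6 of them had an unadjusted p under 0.05. With the block DESeq2 called 4 of the 10 between tissues on chow (Ackr1, Ackr3, Ackr4 and Cxcl1, all higher in the mesentery, with 3.31% of all genes called) and 4 averaged over diets (Ackr3, Ackr4 and Cxcl1 higher and Cxcl12 lower, 2.61%). It also called Ackr3 lower on the high fat diet in the mesentery (-0.83, 2.01%) and averaged over tissues (-0.60, 1.38%).

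Of the other genes of the pathway, 30 further chemokine ligands gave 5 to 11 that could be tested per class. In capillary-like cells 3 of 8 tested ligands were higher on the high fat diet in adipose tissue with the block, Ccl5, Ccl6 and Ccl9, ligands made by leukocytes, at 4.60 ± 1.12, 3.33 ± 0.73 and 3.86 ± 0.96 on the log2 scale (SE, edgeR adjusted p = 0.0176, 0.00605 and 0.0224), with a median of 1.872 over the list against 0.029 over all genes, of which 1.04% were called. The 10 macrophage markers in these cells summed to 31.1 and 16.7 CPM in chow adipose and 81.8 and 233.5 in high fat adipose. In run B most of the class also passed from cluster 2 to cluster 7, by the shares given above for Cxcl9. The part of either in these differences was not tested. Ccl6 was also higher on the high fat diet in capillary-like cells of the mesentery (3.78) and in arterial-like cells of adipose tissue (4.32), and Ccl7 was higher in the mesentery in lymphatic-like cells on the high fat diet (4.0), 1 of 5 ligands tested. Of 19 conventional receptors 2 to 4 could be tested per class. Cxcr4, the signalling receptor of CXCL12, was lower in mesenteric than adipose arterial-like cells on chow (-1.51 ± 0.36, edgeR with the block, adjusted p = 0.0261, 2.86% of all genes called). There cluster 4 held 23.3% and 25.26% of the class in the mesentery and 41.03% and 65.51% in adipose tissue, and its part in this was not tested. Of 10 genes of chemokine shedding, cleavage and retention, Mmp2, a gelatinase, was lower on the high fat diet in arterial-like cells of the mesentery (-1.37), and in these cells on chow Mmp2 was higher (2.23) and Mmp14 lower (-1.58) in the mesentery.

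Of the 18 NF-kB response genes, 3 were higher and 0 lower in the mesentery than in adipose tissue in all endothelial cells on chow with the block, Csf1 (2.57), Tnfaip3 (2.16) and Nfkb2 (1.5), and the list's median was 1.218 against 0.011 over all genes, of which 0.562% were called. In arterial-like cells 3 of 16 tested were lower on the high fat diet in the mesentery, the adhesion molecules Vcam1 (-1.39 ± 0.23), Icam1 (-1.28 ± 0.25) and Selp (-1.80 ± 0.36; SE, edgeR adjusted p = 0.003, 0.0122 and 0.0125), with a median of -0.455 against -0.016 and 2.47% of all genes called, and 4 were higher in the mesentery on chow, with 2.86% called. In lymphatic-like cells Icam1 was lower on the high fat diet in the mesentery (-1.24) and Csf1 was higher in the mesentery on chow (1.84), and in venous-like cells Csf3 was higher in the mesentery on the high fat diet (2.11). Of the 28 interferon response genes, Rsad2 was higher on the high fat diet in arterial-like cells of the mesentery (1.31), Gbp4 higher (1.35) and Ifit3 lower (-2.52) in lymphatic-like cells there, and Ifi44 higher in the mesentery in lymphatic-like cells on chow (2.27). Of the 14 immediate early and dissociation genes 3 were lower in lymphatic-like cells of the mesentery on the high fat diet, Zfp36 (-1.77), Hspa1b (-1.91) and Ier3 (-1.18), in the same comparison as Ackr3 and Ackr4, while the list summed to 12559.3 and 865.9 CPM on chow and 13359.6 and 1024.6 on the high fat diet. Hspa1a and Hspa1b were higher in the mesentery on chow in all endothelial cells (1.83 and 2.03). Without the block edgeR called 0 genes of every list.

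For each of the 10 genes, the genes with the most similar pattern over the 4 endothelial classes of the 8 libraries were found by Pearson's r of log2 levels over 32 points, each library centred on its own mean, among 6337 genes. The points of a library share its depth and cells, so r is a description, and Rgcc, Cldn11 and Cysltr1 among the genes found were also markers used to name the classes. Ackr2 was most like Cldn11 (r = 0.977), Slc45a3 (0.967) and Sh3gl3 (0.966), and Ackr1 most like Bst1 (0.972), Il6st (0.911) and Cysltr1 (0.907). Cxcl12 was most like Rgcc (0.968), Fhod1 (0.956) and Kctd12b (0.935), and Cx3cl1 most like Casp1 (0.898), Crispld1 (0.897) and P4ha2 (0.892). Cxcl9 was most like Smim10l1 (0.887), Ccdc85a (0.857) and Lipe (0.852), and Ackr3 was like Thsd7a (0.859) and Timp2 (0.838). Lower values were found for Ccl2 (Kctd17, 0.813; Stap2, 0.789; Zdhhc2, 0.789), Cxcl10 (Myh9, 0.805; Lhx6, 0.765; Tnfrsf1a, 0.759), Ackr4 (Comp, 0.73; Adgrg3, 0.726; Nktr, 0.712) and Cxcl1 (Mgst1, 0.723; Faap20, 0.718; Tpm1, 0.714).

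**Figure D5:**
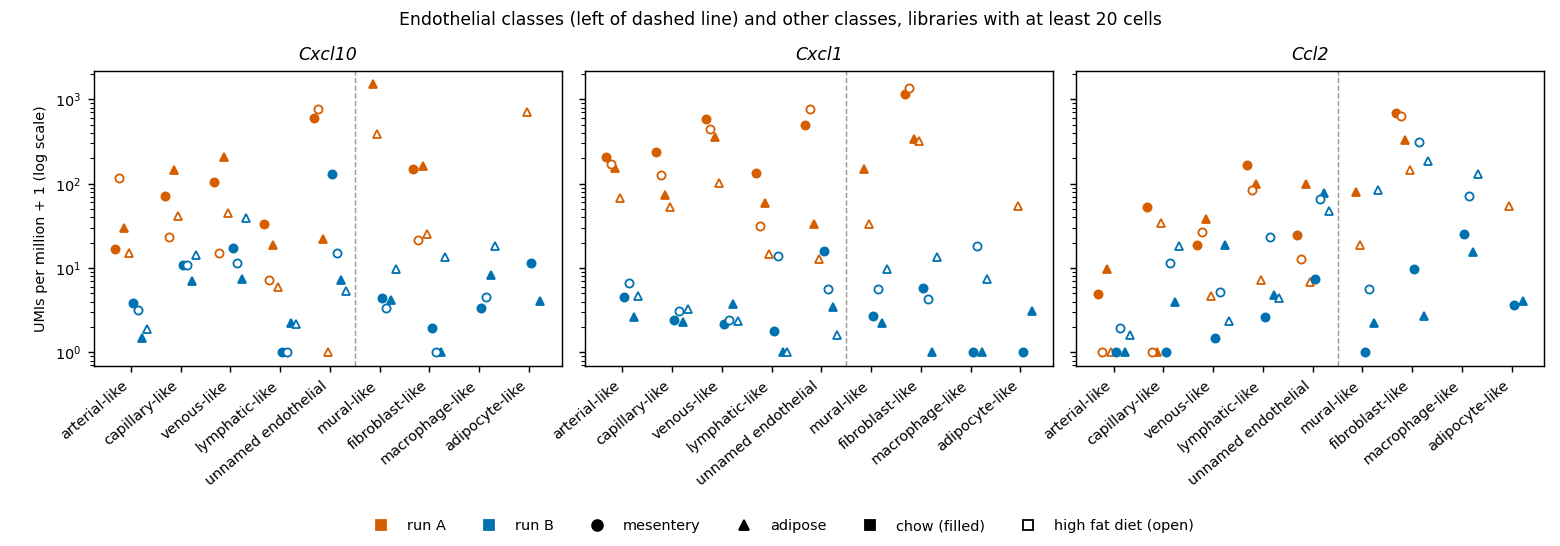
Level of Cxcl10, Cxcl1 and Ccl2 (CPM plus 1, log axis) in the endothelial classes and, right of the dashed line, in mural-like, fibroblast-like, macrophage-like and adipocyte-like cells of the same libraries, for libraries with at least 20 cells of the class. Cxcl10 reaches 1503.6 in mural-like cells of chow adipose in run A, above the maximum of 207.4 over the named endothelial classes.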

How the data were processed

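Single-cell 3' RNA counts of sorted YFP+ cells were compared in 8 libraries. The deposited matrices hold raw UMI counts per gene and cell, which the authors made with counting software of version 3.0.2 (run A) and 5.0.0 (run B), per the file headers. Seurat 4.3.0 and mm10 are named in the submitters' processing notes, and the sources used here give no sort gate. Members and gene lists were chosen with earlier results of these data known.

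Barcodes below 500 UMIs or 300 genes, or above 10% mitochondrial UMIs, were dropped, which left 23996 of 27944. Doublet scores from scanpy 1.11.5 removed 819 cells by the expected rate of 0.8% per 1000 cells, since the automatic threshold marked 55. Cells were clustered with scikit-learn 1.9.0 and leidenalg 0.10.2 (Python 3.11.15, numpy 2.4.6, scipy 1.17.1) on 2000 variable genes without chemokine ligands or receptors. Genes were scaled within each run, and the 30 principal components were aligned between the runs by a Harmony scheme. With 20 neighbours and a resolution of 1.0 this gave 29 clusters, and 5118 cells were not endothelial. The alignment served the clustering only, and levels and tests used the raw UMI counts. Classes took a name from fixed marker lists.

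UMIs were summed per library and class and tested with edgeR 4.0.16 (R 4.3.3; quasi-likelihood, TMM, filterByExpr, 1 mean per group, Benjamini-Hochberg over all genes tested, threshold 0.05), without a block and with the run as a block. DESeq2 1.42.0 and limma 3.58.1 were alternatives. The script was tested on simulated data. The labels say that the experiment was repeated, so runs pair the samples, and the deviations of same-run libraries correlated at 0.30 to 0.76 over all 6 pairs of groups in each class. Exact binomial intervals (95%) and floors of 3 counts cover counting error only.

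The 10 genes are always named, with a log2 change or a ratio for each that passes the threshold in edgeR without or with the block. Listed genes that pass are named, at most the 3 of smallest p per list and comparison. Genes of a like pattern are the 3 of highest r for each of the 10 genes with at least 200 UMIs in the classes, among genes with a mean of at least 20 CPM. 1 gene of a like pattern is not reported here.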

Additional observations from a re-analysis of the deposited data

Results flagged for a closer look

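Cxcl10, Cxcl1 and Ccl2 had signal in cells outside the endothelial classes that the report compares, and each value below lies above the highest of the 4 endothelial classes of its own library. Cxcl10 was at 1503.6 CPM in mural-like cells of chow adipose in run A (1412 UMIs, 376 cells), where the highest endothelial class was at 207.4. In high fat adipose of run A it was at 391.4 (110 UMIs, 75 cells) against 44.1. Cxcl1 was at 1166.9 in fibroblast-like cells of chow mesentery in run A (247 UMIs, 80 cells) against 579.1, and at 1344.1 in those of high fat mesentery in run A (194 UMIs, 45 cells) against 441.0. Ccl2 was at 694.5 in fibroblast-like cells of chow mesentery in run A (147 UMIs, 80 cells) against 164.2, and at 184.9 in those of high fat adipose in run B (131 UMIs, 153 cells) against 17.3. In macrophage-like cells Ccl2 was at 70.7 in high fat mesentery of run B (141 UMIs, 133 cells) against 22.1, and at 128.4 in high fat adipose of run B (1113 UMIs, 554 cells) against 17.3. No group comparison was made in these cells.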

How the results depend on the processing

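The mean level of each gene in its leading class moved by less than 1 SD under 140 of 140 pairs of gene and alternative (other cell filters, doublets kept, other resolutions, a mean over cells and each library left out). The order of the 4 classes was another in 19 of them, with another leading class in 8. Of these, 7 are Ackr3, from lymphatic-like to venous-like, and 1 is Cxcl10, from venous-like to capillary-like with doublets kept (50.3 against 49.3). In Ccl2 venous-like passed capillary-like cells without chow mesentery of run A or either high fat adipose library. With the run as a block, 123 of 160 alternatives kept the direction and the call of the 9 called differences, 37 kept the direction and lost the call, and 0 reversed. Without the replicate block 2 of 178 reversed, both between diets in the mesentery. Cxcl12 in arterial-like cells ranged from -0.34 without high fat mesentery of run B to 3.69 without chow mesentery of run B when 1 library was left out, and Ackr4 in lymphatic-like cells from -4.02 without high fat mesentery of run B to 0.31 without chow mesentery of run B. Low UMI counts of Ackr4 in adipose tissue, and of Cxcl1 in run B (210 in all endothelial cells), limit what can be called. So do those of Cxcl9 (444) and Cx3cl1 (385) in run A and of Ccl2 in both runs (469 and 656). The 33 to 160 capillary-like cells per library of run A are a further limit.

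Of the 10 genes, edgeR without the block called 0 in every comparison. The replicate block gave 1 in all endothelial cells (tissue averaged, 0.456% of all genes called), arterial-like cells (diet, mesentery, 2.47%) and venous-like cells (tissue, chow, 1.6%). It gave 2 in lymphatic-like cells for diet in the mesentery (1.86%) and for tissue on chow (1.7%) and on the high fat diet (0.172%). With no replicate block these counts were 0. DESeq2 without the block gave 1 in all endothelial cells for tissue on chow (0.608% of all genes called) and averaged (0.745%). DESeq2 with the block gave, in all endothelial cells, 1 for diet in the mesentery (2.01%) and averaged (1.38%) and 4 for tissue on chow (3.31%) and averaged (2.61%). It gave 1 in arterial-like cells (diet, mesentery, 1.06%) and 2 in venous-like cells, Cxcl12 and Ackr3 (tissue, chow, 1.1%). In lymphatic-like cells it gave 2 for diet in the mesentery (0.596%), 2 for tissue on chow (0.527%) and 1 on the high fat diet (0.0573%). limma with the block gave 0 in all endothelial cells (tissue averaged) and 1 in arterial-like cells (diet, mesentery, 1.16%). In venous-like cells it gave 1 for tissue on chow (1.24%) and on the high fat diet (0.131%). In lymphatic-like cells it gave 3 for diet in the mesentery (1.71%), 2 for tissue on chow (1.4%) and 3 on the high fat diet (0.16%). For diet in the mesentery these were Ackr3, Ackr4 and Cxcl1 (-1.84). Cxcl1 was there at 131.9 and 0.8 CPM on chow and at 30.6 and 12.8 on the high fat diet. Its runs went opposite ways, with 1 and 11 UMIs in run B. With no filter on low counts and no block, 1 and 2 were called in arterial-like cells between tissues on chow and on the high fat diet, 1 in venous-like cells for either diet comparison and for tissue on the high fat diet, and in lymphatic-like cells 1 for either diet comparison, 2 for either tissue comparison and 1 for the interaction.

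With the block, a mitochondrial limit of 20% gave 0 in all endothelial cells (tissue averaged), 1 in arterial-like cells (tissue, chow) and 1 in capillary-like cells (tissue, high fat diet). Keeping doublets gave 0 in all endothelial cells (tissue averaged), 0 in arterial-like cells (diet, mesentery), and 2, 1 and 2 in capillary-like cells for diet in the mesentery, diet in adipose tissue and tissue on the high fat diet. A minimum of 1000 UMIs gave 1 in arterial-like cells (tissue, chow), 1 in capillary-like cells (tissue, high fat diet) and 2 in venous-like cells (tissue, chow). A resolution of 0.5 gave 1 in arterial-like and 2 in venous-like cells for tissue on chow, and a resolution of 2.0 gave 1 in arterial-like cells. The cause of these moves was not tested.

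Leaving out 1 library with the block gave, in all endothelial cells, 0 to 1 for diet in the mesentery, diet averaged and tissue on the high fat diet, and 0 to 3 for tissue on chow and averaged. In arterial-like cells it gave 0 to 2 for diet in the mesentery, 0 to 1 for diet in adipose tissue, 0 to 3 for tissue on chow and 0 to 1 on the high fat diet. In capillary-like cells it gave 0 to 1, 0 to 2 and 0 to 1 for diet in the mesentery, diet in adipose tissue and tissue on the high fat diet. In venous-like cells it gave 0 to 2 for diet in adipose tissue, 0 to 4 for tissue on chow, 0 to 2 on the high fat diet and 0 to 1 for the interaction, and in lymphatic-like cells 2 to 3 for diet in the mesentery, 0 to 1 for diet in adipose tissue, 0 to 3 for tissue on the high fat diet and 0 to 2 for the interaction.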

Other observations

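Several of the 10 genes had levels in small endothelial clusters that the report does not describe. Cluster 26, counted among the venous-like cells and led by Glycam1 and Madcam1, genes of high endothelial venules, held Ackr1 at 347.6 and 385.7 CPM in chow mesentery of runs A and B and at 576.8 and 246.9 in high fat mesentery. Its Cxcl9 was at 230.1 and 232.1, and at 258.7 and 651.7, and its Ackr3 was at or under 9.9. Cluster 22, led by Esm1, a gene of growing vessels, held Cxcl12 at 3230.8 in chow mesentery of run B and at 2091.4 and 2769.0 in chow adipose, with Cxcl9 at or under 41.1. Cluster 23, led by Prnd and Apln, genes of sprouting tips, held Ccl2 at 93.9 and 162.0 in high fat mesentery and high fat adipose of run B (90 and 62 cells), where 1 cell held 31 of 88 and 49 of 70 UMIs. In chow adipose of run B it was at 186.9, and 1 of 102 cells held 142 of the 149 UMIs. Chow mesentery of run B had 8 such cells with 10 UMIs, and run A had 0 to 2 UMIs. Cluster 14, led by Marco and Clec4g, was found in the mesentery, with 107 and 422 cells on chow and 31 and 2 on the high fat diet. Its Cxcl10 was at 623.2 and 178.7 on chow and 1254.5 in run A on the high fat diet, and its Ackr4 at 17.3 and 182.9, and 4.8.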
